A study of Homo sapiens with 6 samples.

Results

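The ribosomal protein genes of HCT116 cells, an established human colorectal carcinoma line, were compared between cells transfected with pcYY2, a vector for overexpression of YY2, and cells transfected with pcCon, the empty pcDNA3.1(+) vector. Polyadenylated RNA from 3 samples of each group had been sequenced, and both groups went through the same transient transfection with Lipofectamine 2000. The methods state collection a day after transfection for overexpression experiments. Bulk RNA averages over all cells of a dish, those without plasmid included, and in such samples fewer cells of a kind and less RNA per cell cannot be told apart. The genes were taken by name, as every RPL or RPS gene with a number and at most a final A or X, together with RPLP0, RPLP1, RPLP2 and RPSA. This gave 77 genes of the 50868 in the table, 46 of the large (60S) and 31 of the small (40S) subunit.

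The cytosolic ribosome is built from ribosomal RNA and one copy of nearly every ribosomal protein. The large subunit holds the peptidyl transferase centre and the exit tunnel, whereas the small subunit reads the mRNA. Since the subunits are needed in equal numbers, cells make their proteins in balance. Ribosomal protein mRNAs are short and abundant, and they begin with a 5′ terminal oligopyrimidine (TOP) tract, a C followed by a run of C and T in the DNA, through which mTOR signaling and LARP1 act on their translation. YY2 is a zinc finger transcription factor that arose from the closely related YY1 and binds a similar DNA sequence, which holds GCCAT. YY1 sites just after the start are known in promoters of several ribosomal protein genes.

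RefSeq promoter sequences (GRCh38.p14, 250 bases before and 50 bases from the annotated start on) matched 62 of the 77 genes by symbol. A TOP start was taken as a C followed by at least 4 C or T, beginning between positions -10 and 10 with the first transcribed base as 1 and no position 0. It was present in 56 of these 62 genes (90.3%), compared with 3321 of 8181 tested genes in the promoter table (40.6%). The first bases are shown for 2 genes that were lower in pcYY2 cells (RPL12, RPL26), for RPS27, which had the highest fold change, and for RPL37A and RPL29, which had the lowest. Capitals mark the TOP run, and each stretch covers positions -5 to 25.

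RPL12 (chr9:127451382-127451411, minus strand): tccggCCTCTCggctttcggctcggaggag

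RPL26 (chr17:8383169-8383198, minus strand): tagttCTCTTCCCTTTTgcggccatcaccg

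RPS27 (chr1:153990757-153990786, plus strand): tcgctCCTTTCCggcggtgacgacctacgc

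RPL37A (chr2:216498839-216498868, plus strand): tcttcCTTTCTgggctcggacctaggtcgc

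RPL29 (chr3:51995871-51995900, minus strand): cctttCTCTTCCggttctaggcgcttcggg

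All 5 thus carried a TOP run at the start, whichever way their values lay.

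The YY1/YY2 consensus CGCCATNTT was searched on both strands, as was its core GCCATNT, which lies within it. The consensus was found in 8 of the 62 genes (12.9%), compared with 9.22% of the tested genes and 3.85% of all 27305 genes of the promoter table. In 5 of these 8, namely RPL24, RPL35A, RPL41, RPL21 and RPL13A, it lay after the start (8.06% of 62, compared with 6.04% of the tested genes). The stretches with the consensus in capitals are shown for the 4 of them that carry it on the transcribed strand, and for RPL12, where it lies upstream on the opposite strand.

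RPL24 (chr3:101686694-101686723, minus strand, positions -5 to 25): tctctctttcttttCGCCATCTTttgtctt

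RPL35A (chr3:197950185-197950214, plus strand, positions -5 to 25): tcgtccttctcttacCGCCATCTTggctcc

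RPL41 (chr12:56116628-56116657, plus strand, positions -5 to 25): cctttctctcggccttagCGCCATTTTttt

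RPL21 (chr13:27251553-27251582, plus strand, positions -5 to 25): tctttcctttcggccggaacCGCCATCTTc

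RPL12 (chr9:127451489-127451518, minus strand, positions -112 to -83): gcccacaacaAACATGGCGacaagggcgtc

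In the first 4 the consensus began at position 10, 11, 14 and 16, directly after the pyrimidine tract in RPL24 and after further bases in the other 3. RPL14 and RPS28 had it from positions -146 and -143 on. The core was found in 13 of the 62 genes (20.97%), compared with 20.69% of the tested genes. A match gives the letters only, and binding was not measured in these samples.

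The labels were checked on YY2 itself. YY2 was listed at 2.22, 2.52 and 1.73 FPKM (fragments per kilobase of gene length, scaled to the sequencing depth) in pcCon samples 1 to 3 and at 11.62, 11.08 and 11.01 FPKM in pcYY2 samples 1 to 3. It was 5.23-fold higher in pcYY2 cells (log2 fold change 2.39, SE 0.14, edgeR adjusted p = 0.00107), and reads of the plasmid and of the YY2 locus cannot be told apart. Total counts ranged from 15158360 to 29572882. Of the markers of HCT116 cells, EPCAM lay between 68.9 and 76.8 FPKM, CDH1 between 4.14 and 6.43 FPKM and VIL1 at or near 0 in every sample, while KRT8 (1.59-fold) and KRT19 (1.52-fold) were higher in pcYY2 cells (adjusted p = 0.0117 and 0.00208) and KRT18 lay between 54.1 and 65.2 FPKM. Of 9 markers of fibroblasts, leukocytes and endothelial cells, COL1A1 lay between 1.90 and 2.66 FPKM, and the other 8 stayed at or below 0.244 FPKM, with COL1A2 and DCN listed at 0 in all samples. Whether these marker differences had a part in the values below was not tested.

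Of the 77 genes, 76 passed the filter for testing (a mean FPKM of at least 1), out of 12015 genes that passed in all. RPS28 did not pass. It was listed at 0.805, 0.831 and 0.717 FPKM in pcCon samples and 1.34, 0.752 and 0.839 FPKM in pcYY2 samples, with 43 to 88 counts. The counts of the 77 genes ranged from 43 to 37257 per gene and sample, and none was 0 anywhere.

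Upon YY2 overexpression, ribosomal protein genes were called lower about as often as other genes, and higher less often. Of the 76 tested genes, 3 were lower and 0 were higher in pcYY2 cells at an adjusted p of 0.05 or less (edgeR's quasi-likelihood test). This was 3.95% of the genes for lower, compared with 4.85% of all tested genes, and 0% for higher, compared with 4.52%. In either direction 9.37% of all tested genes were called. DESeq2 gave 4 lower and 0 higher among the 76, and 726 lower and 713 higher among all genes (12.5% of those with an adjusted p). With limma on log2(FPKM + 1), 3 were lower and 1 higher, and 563 and 461 among all 12015 genes (8.52%). At an unadjusted p under 0.05, 10 genes were lower and 4 higher (13.2% and 5.26%), where 14.5% and 14.4% of all genes were. In 16 of the 76 genes (21.1%) the FPKM values of the groups did not overlap, compared with 35.8% of all tested genes. With pcYY2 lower, this was 17.1% compared with 19.9% of all tested genes, and with pcYY2 higher 3.95% compared with 15.9%. The share among the 76 ribosomal protein genes was therefore near the background for lower values and below it for higher values.

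The size of the differences was small. The median log2 fold change was 0.011 for the 76 genes and 0.002 for all 12015 tested genes. The median size of the log2 fold change, regardless of sign, was 0.11 for the 76 genes and 0.15 for all. Of the 76, 71 (93.4%) lay within 0.25 of 0 on the log2 scale, compared with 72.3% of all genes. The range ran from -0.45 (RPL37A) to 0.38 (RPS27). For comparison, 56 of the 76 were among the 1202 tested genes with the highest mean FPKM. Of those 1202 genes 16.7% were called, 3 of the 56 ribosomal protein genes among them.

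**Figure D1:**
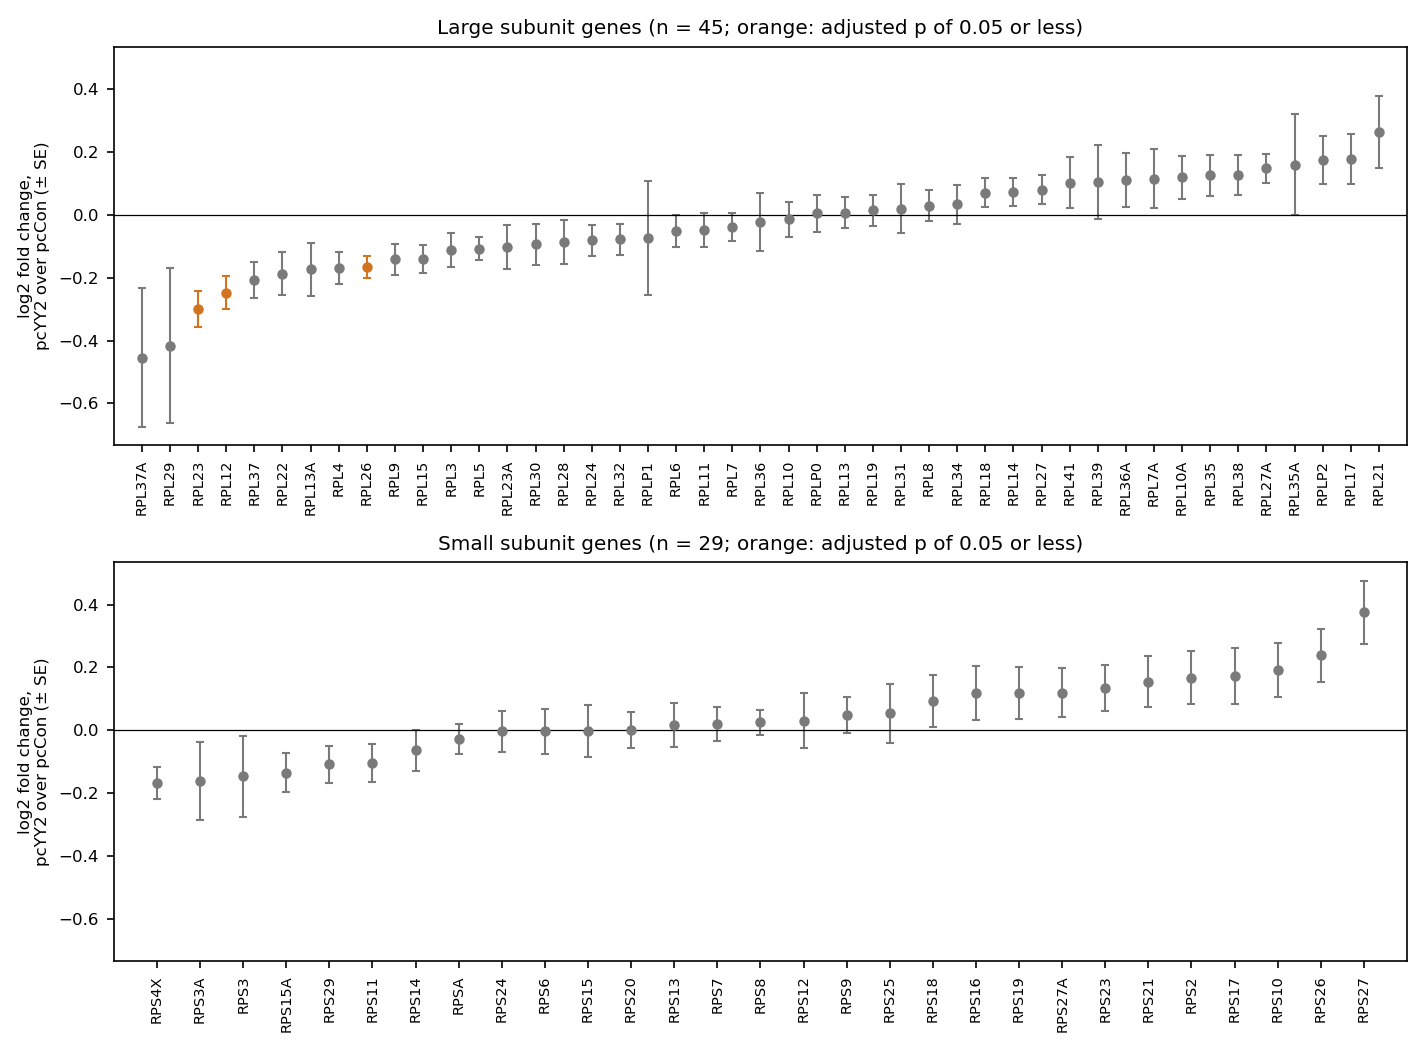
Log2 fold change of pcYY2 over pcCon (vertical axis) for 45 large subunit genes (upper panel) and 29 small subunit genes (lower panel), in order of the value. Points are the edgeR estimates, bars their SE, and the 3 genes in orange (RPL23, RPL12 and RPL26) had an adjusted p of 0.05 or less, while most other genes lay within 0.25 of 0.

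All 3 called genes belonged to the large subunit. RPL23 (ENSG00000125691, chr17:38847865-38853843, minus strand, GENCODE 44 on GRCh38) encodes a protein at the face between the subunits and one of the ribosomal proteins known to bind MDM2. It was listed at 42.1, 43.2 and 46.4 FPKM in pcCon samples and at 36.6, 36.2 and 33.1 FPKM in pcYY2 samples. Every pcYY2 sample thus lay below every pcCon sample. RPL23 fell to 0.813-fold (log2 fold change -0.30, SE 0.057, adjusted p = 0.0267).

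RPL12 (ENSG00000197958, chr9:127447674-127451405, minus strand) encodes the protein at the base of the ribosomal stalk, where elongation factors bind. Its values were 204.1, 202.7 and 202.2 FPKM in pcCon samples and 159.7, 181.2 and 166.9 FPKM in pcYY2 samples. The pcCon samples lay within 2 FPKM of each other, and the pcYY2 samples were all below them. RPL12 fell to 0.842-fold (log2 fold change -0.25, SE 0.053, adjusted p = 0.0353).

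RPL26 (ENSG00000161970, chr17:8377520-8383213, minus strand) encodes a protein near the mouth of the exit tunnel. It measured 79.9, 81.0 and 80.7 FPKM in pcCon samples and 72.0, 71.6 and 69.6 FPKM in pcYY2 samples, again without overlap. The fall was to 0.891-fold (log2 fold change -0.17, SE 0.035, adjusted p = 0.0337). Another gene is annotated over RPL26 on the same strand, as it is over 15 of the 77 genes in all, and reads there are of uncertain origin.

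These calls depended on the samples and on the filter. RPL26 lost its call when any 1 of the 6 samples was left out (adjusted p from 0.0514 to 0.117). RPL12 kept it only without pcYY2-2, and its adjusted p otherwise lay between 0.0607 and 0.105. RPL23 kept it only without pcYY2-1, and its adjusted p otherwise lay between 0.0524 and 0.0787. The direction of all 3 was the same in each of these fits. With all samples but no filter, RPL26 was not called (edgeR adjusted p = 0.101), while RPL12 and RPL23 were.

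The large and small subunit genes were compared next. Among the 46 large subunit genes, 3 were called lower (6.52%, compared with 4.85% of all tested genes), and 9 had an unadjusted p under 0.05 and a negative fold change (19.6%, background 14.5%). Among the 30 small subunit genes edgeR and DESeq2 called 0 in either direction, and at an unadjusted p under 0.05 1 was lower (3.33%) and 3 were higher (10%, background 14.4%). Groups lay apart, with pcYY2 lower, in 12 large subunit genes (26.1%) and in 1 small subunit gene (3.33%), where this was so in 19.9% of all tested genes. Groups lay apart with pcYY2 higher in 1 large and 2 small subunit genes (2.17% and 6.67%), compared with 15.9% of all tested genes. The large subunit thus held 12 of the 13 genes with separate and lower values, but the difference between the subunits was not tested, as genes are not replicates.

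By fold change the medians of both subunits lay near 0. The median log2 fold change was -0.018 for large and 0.028 for small subunit genes, each smaller than the spread of such medians between samples of a group (pooled SD 0.050 and 0.059). The difference between these medians, large minus small, was -0.046, beside a pooled SD of 0.026 for such differences between samples of a group. It shrank to -0.013 when the reads of pseudogenes were added to those of their genes. Taken sample by sample, with each gene relative to its pcCon mean, the large minus small median was 0.015, -0.028 and 0.0097 in pcCon samples and -0.059, -0.051 and -0.10 in pcYY2 samples. The pcYY2 samples thus all lay below the pcCon samples, with means of -0.071 and -0.0010 on the log2 scale and a pooled SD of 0.026. Of the large subunit genes 22 had a positive and 24 a negative log2 fold change, and of the small subunit genes 19 and 11.

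Summed reads were compared on the scale of the whole library. All 77 genes together took 3.01% ± 0.085 of the counted reads in pcCon cells and 2.93% ± 0.050 in pcYY2 cells (SD, n = 3), and the groups overlapped. The large subunit genes took 1.77%, 1.85% and 1.86% in pcCon samples and 1.71%, 1.78% and 1.74% in pcYY2 samples. The highest pcYY2 sample lay just above the lowest pcCon sample, so these groups also overlapped. The small subunit genes took 1.18% ± 0.037 in pcCon and 1.19% ± 0.028 in pcYY2 cells, which differed by less than the spread between samples.

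Of these quantities only the ratio of the sums set the groups apart, and it was not tested. For comparison, the FPKM values of the groups did not overlap in 35.8% of all tested genes. Every version of the ratio given here used the same 6 samples. Reads of large over small subunit genes stood at 1.558, 1.534 and 1.558 in pcCon samples and at 1.469, 1.501 and 1.427 in pcYY2 samples. All pcYY2 samples thus had a lower ratio than any pcCon sample. The means were 1.550 ± 0.014 and 1.466 ± 0.037 (SD, n = 3), a difference of -0.084. The groups also did not overlap without the 3 called genes (1.410 and 1.349), without RPL29 and RPL37A, in each of which 1 sample stood apart (1.490 and 1.422), without RPL3 and RPL4, the largest contributors of the large subunit (1.317 and 1.259), or with the reads of pseudogenes added (1.647 and 1.574).

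**Figure D2:**
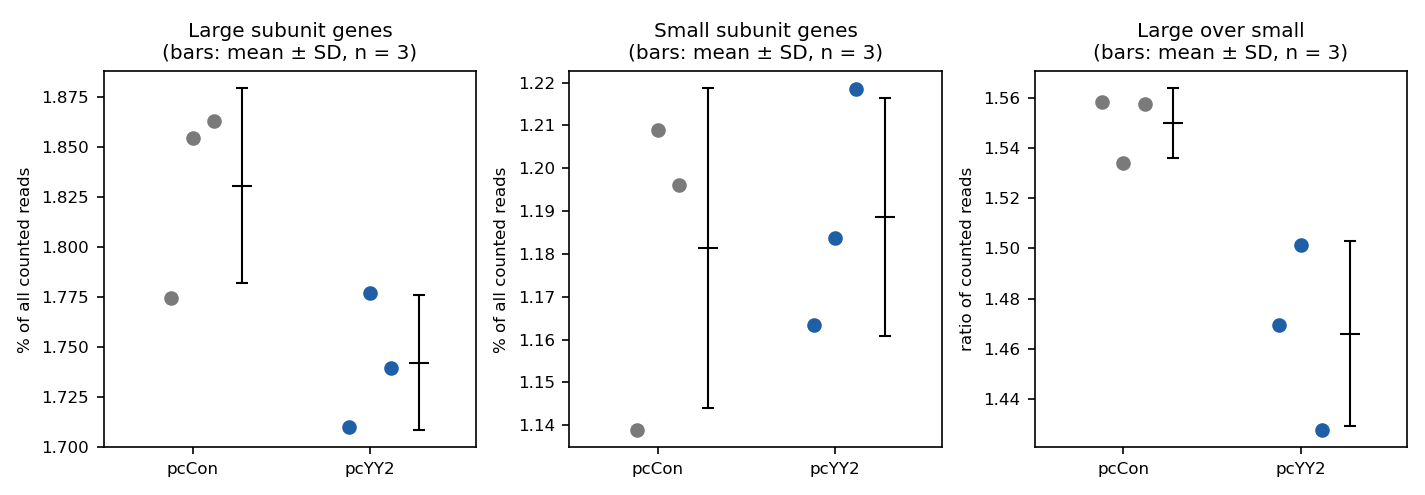
Reads of the large subunit genes and of the small subunit genes as a percentage of all counted reads, and the ratio of large to small, for each sample (points, replicates 1 to 3 from left to right) with the mean and SD of each group of 3. Axes do not start at 0. Of these quantities the ratio is the one in which the groups lie apart, from 1.534 to 1.558 in pcCon and from 1.427 to 1.501 in pcYY2.

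Single genes differed in their part of the fall of the large subunit sum, and those outside the naming rule were chosen after their values were seen. RPL4, which lines the exit tunnel, went from 0.143% to 0.126% of the counted reads, a difference of -0.017 percentage points. Next came RPL37A (-0.014 points), RPL12 (-0.012 points) and RPL3 (-0.011 points), a protein close to the peptidyl transferase centre, beside a difference of -0.089 points for the large subunit as a whole. RPL23 followed with -0.0095 points. The lowest value behind RPL37A was that of pcYY2-2, at 17.8 FPKM. Other abundant large subunit genes did not fall in this way. RPLP0 went from 0.0986% to 0.0980%, RPL19 stayed at 0.088%, and RPL10A and RPL7A rose by 0.0046 and 0.0044 points. In the small subunit RPS4X lay lower by a difference of -0.011 points, while RPS2, at the entry of the mRNA channel, stood 0.0093 points higher. The groups overlapped for RPS2 (edgeR adjusted p = 0.245), and pseudogenes held 66.2% of the reads of RPS2 and its pseudogenes. Adding these took the log2 ratio of mean CPM (counts scaled to the library total) of RPS2 from 0.15 to 0.016.

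RPS4X, encoded on the X chromosome (chrX:72255679-72277300, minus strand), was the small subunit gene with the lowest log2 fold change and the 1 whose groups lay apart with pcYY2 lower. It was listed at 218.9, 218.3 and 205.2 FPKM in pcCon samples and at 193.3, 175.5 and 197.6 FPKM in pcYY2 samples. The log2 fold change was -0.17 (SE 0.052, adjusted p = 0.0853), which did not pass the threshold. RPL37 also lay apart, with 43.1, 41.0 and 41.8 FPKM in pcCon and 39.1, 34.4 and 34.5 FPKM in pcYY2 samples (adjusted p = 0.0648). It was the gene that DESeq2 called in addition to the 3 (adjusted p = 0.0473), and edgeR called it without pcYY2-1 (adjusted p = 0.0301), within a range of 0.0301 to 0.167 over all alternatives. The other large subunit genes with separate and lower values were RPL37A, RPL22, RPL4, RPL9, RPL15, RPL3, RPL5 and RPL32. RPL5, which with RPL11 and 5S rRNA forms the particle that binds MDM2, was listed at 174.0, 167.9 and 177.8 FPKM in pcCon and 160.6, 159.7 and 157.3 FPKM in pcYY2 samples, at an adjusted p of 0.104. RPL11 itself overlapped between the groups (243.3, 249.5 and 268.6 FPKM against 233.6, 253.6 and 241.7 FPKM, adjusted p = 0.588).

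Among the genes on the higher side in pcYY2 cells, none of which passed the test with edgeR, RPS27 (chr1:153990759-153992150, plus strand), which encodes a zinc-binding protein of the 40S subunit, had the highest log2 fold change of all 76 genes. It was listed at 6.42, 7.54 and 7.49 FPKM in pcCon samples and at 9.29, 9.27 and 8.99 FPKM in pcYY2 samples. These groups lay apart, and the fold change of 1.30 (log2 fold change 0.38, SE 0.10) had an adjusted p of 0.0615, just past the threshold. With limma on log2(FPKM + 1) it was called (adjusted p = 0.0377), and over all alternatives its adjusted p ranged from 0.0377 to 0.149.

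RPS26, at the mRNA exit side, also lay apart, with 6.71, 6.94 and 6.58 FPKM against 8.52, 7.44 and 7.73 FPKM (adjusted p = 0.118). The third gene with separate and higher values was RPL27A, at 32.8, 34.7 and 35.4 FPKM against 36.8, 38.6 and 37.6 FPKM (adjusted p = 0.0863). The highest log2 fold changes of the large subunit were those of RPL21 (0.26), RPL17 (0.18) and RPLP2 (0.17), all with overlapping groups.

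The stalk proteins RPLP0, RPLP1 and RPLP2, which recruit elongation factors, and RPSA, also known as a laminin receptor, did not pass the test. RPLP0, often used as a reference transcript, was listed at 77.7, 91.6 and 82.8 FPKM in pcCon and at 85.1, 82.8 and 82.5 FPKM in pcYY2 samples (log2 fold change 0.0047, SE 0.060). RPLP2 measured 74.97, 86.7 and 88.4 FPKM against 86.9, 96.7 and 95.7 FPKM (adjusted p = 0.192). RPSA measured 137.8, 138.2 and 139.3 FPKM against 128.7, 143.0 and 131.5 FPKM (adjusted p = 0.737). RPL12, the neighbour of RPLP0 in the stalk base, was the 1 stalk gene called.

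In 5 genes, 1 sample stood apart from the other 5, and it was a different sample each time. RPL37A, with the lowest log2 fold change (-0.45, SE 0.22, adjusted p = 0.228), was listed at 35.3, 39.9 and 39.9 FPKM in pcCon samples and at 34.7, 17.8 and 30.8 FPKM in pcYY2 samples. The low value was that of pcYY2-2, the deepest library. RPL29 stood at 40.4, 38.5 and 72.1 FPKM in pcCon and at 31.7, 39.5 and 40.7 FPKM in pcYY2 samples, with a log2 fold change of -0.42 (SE 0.25, adjusted p = 0.313) that became -0.066 without pcCon-3. Without pcYY2-2 the log2 fold change of RPL37A was -0.22.

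RPL35A was low in pcCon-1, with 63.6 FPKM where the other samples ranged from 88.8 to 101.6 FPKM. RPS3, at the mRNA entry of the 40S subunit, was high in pcCon-2, with 50.3 FPKM against 34.8 to 39.5 FPKM. RPLP1 was low in pcYY2-1, with 49.5 FPKM against 62.8 to 82.8 FPKM. Leaving out that 1 sample turned the sign of the log2 fold change of RPL35A (0.16 to -0.020), RPS3 (-0.15 to 0.013) and RPLP1 (-0.074 to 0.10). None of these 5 genes was called.

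**Figure D3:**
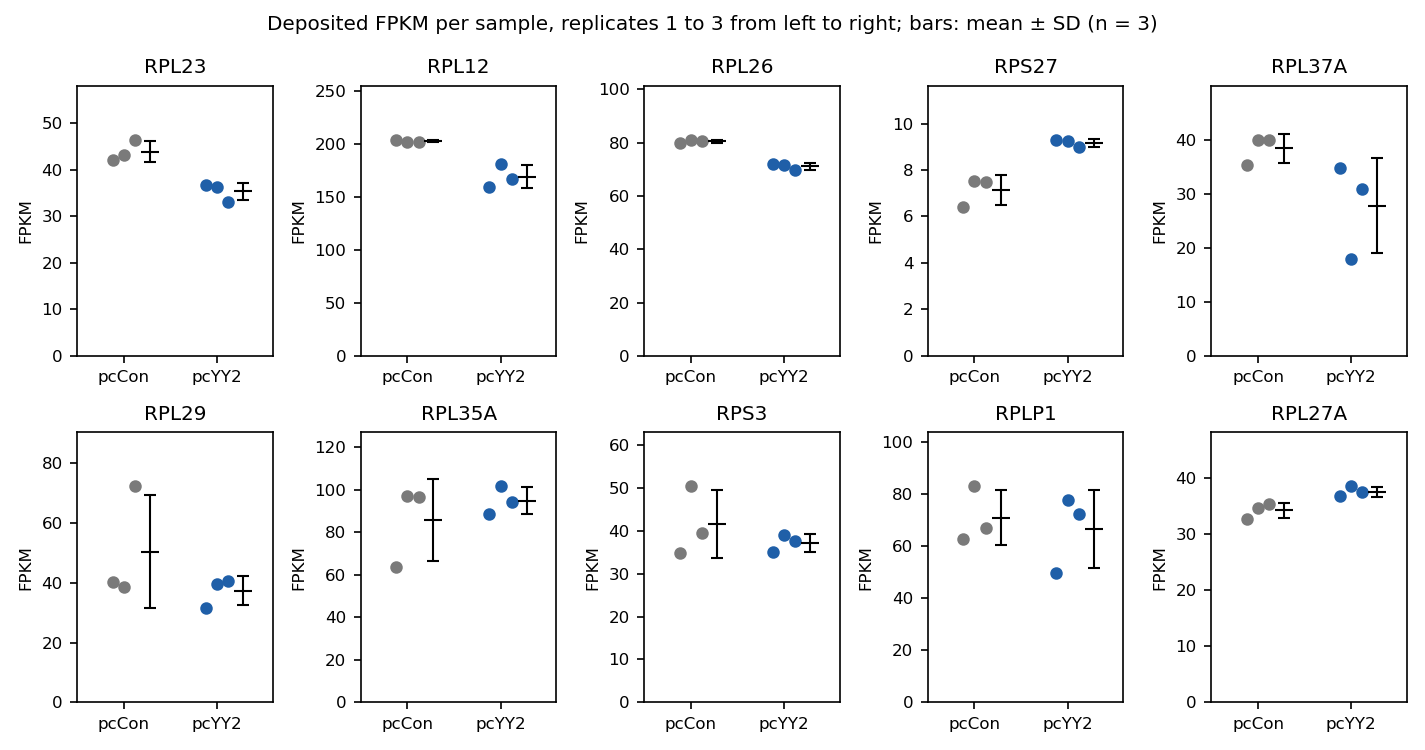
Deposited FPKM (vertical axes, from 0) of 10 ribosomal protein genes in each sample, with replicates 1 to 3 of pcCon (grey) and pcYY2 (blue) from left to right and the mean and SD of each group beside them (n = 3). RPL23, RPL12 and RPL26 separate the groups with little spread, RPS27 and RPL27A lie apart in the other direction, and in RPL37A, RPL29, RPL35A, RPS3 and RPLP1 a single sample stands apart.

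Levels differed widely between the genes. Mean FPKM over the 6 samples ranged from 0.880 (RPS28) to 276.8 (RPS12), with a median of 45.1 FPKM. The 5 highest were RPS12, RPS6 (274.3 FPKM), the S6 kinase substrate, RPL10A (260.4 FPKM), RPL11 (248.4 FPKM) and RPL19 (204.1 FPKM). None of these 5 passed the test between the groups. RPS12 was listed at 242.0, 275.9 and 307.8 FPKM in pcCon and at 266.9, 278.2 and 290.1 FPKM in pcYY2 samples. RPS6 was listed at 270.1, 269.4 and 288.1 FPKM in pcCon and at 286.4, 241.7 and 290.2 FPKM in pcYY2 samples. The lowest among the tested genes were RPL39 (3.82 FPKM), RPL36A (5.36 FPKM), RPS29 (5.68 FPKM), RPS26 (7.32 FPKM) and RPL21 (7.73 FPKM).

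This order between genes depends on the gene length behind FPKM. The lengths by which the authors divided were 929 to 16740 bp for these genes, exceeded the whole genomic span of the gene in 36 of 77, and were 2.35 to 67.7 times the coding length of the canonical transcript (75 to 1281 bases). Per kilobase of coding sequence instead, the 5 highest were RPS24, RPL41, RPS23, RPS18 and RPL37A, and 0 of the 5 genes that led by FPKM were among them. This order has a limit too, as coding length leaves out the untranslated parts. The coding part was 75 of 676 bases in the canonical transcript of RPL41 and 276 of 2992 in that of RPL37A. Within a gene the length is the same in all samples, so comparisons between the groups do not depend on it.

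Many ribosomal protein mRNAs have processed pseudogenes, near-identical copies inserted elsewhere in the genome, and reads can be counted on either. The table held 967 genes named as such pseudogenes, 423 of them with reads. Together they took 1.03% ± 0.017 of the counted reads in pcCon and 0.980% ± 0.035 in pcYY2 cells (SD, n = 3). The groups only just did not overlap, with the lowest pcCon sample at 1.0134% and the highest pcYY2 sample at 1.0121%. In 12 of the 77 genes more reads were counted on the pseudogenes than on the gene, while in 53 the pseudogenes held under 10% of the reads of both. RPS28 had 391 reads over all samples where its pseudogenes had 11460, all on RPS28P7. RPL21 had 3203 reads where RPL21P75 alone had 58972. RPL7 (88.4% of the reads on pseudogenes), RPL23A (87.7%), RPS26 (82.2%) and RPS3A (72.0%) were further examples. The values of these genes are therefore those of a part of their reads.

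For some genes the direction depended on this. RPL21 and RPS26, which were among the highest alone (log2 fold changes of 0.26 and 0.24), stood at -0.0065 and -0.015 once the reads of their pseudogenes were added. RPS28, untested, had a log2 ratio of mean CPM (counts scaled to the library total) of 0.31 alone and of -0.12 with RPS28P7. On the same scale RPL7A went from 0.10 to -0.012, RPL14 from 0.058 to -0.020 and RPS7 from 0.0045 to -0.10, while RPL23A went from -0.12 to 0.037. RPS27 did not move in this way, as its pseudogenes held 0.282% of the reads of both. RPS27 itself was low, with 1414 reads over all samples and 48.2 CPM per kilobase of coding sequence. The median of the small subunit genes was 665.4 on this scale, and RPL21, RPS26 and RPS28 stood at 58.6, 55.1 and 16.8. Adding pseudogenes cannot bring back reads counted on neither gene nor copy, and whether RPS27 lost such reads was not tested.

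The called genes kept their direction. RPL12 held 76499 reads and its pseudogenes 52943 (40.9% of both). Of these, RPL12P4 fell to 0.819-fold (adjusted p = 0.0263), whereas RPL12P16 stood at 0.859-fold (adjusted p = 0.0678). RPL26P19 fell to 0.805-fold (adjusted p = 0.0311) beside RPL26. Shared reads between gene and copy make these values not independent of the gene's own. RPL12, RPL23 and RPL26 were again the 3 genes called when pseudogene reads were summed with the genes. Of the 94 pseudogenes tested, 2 were lower (2.13%) and 0 higher, compared with 4.85% and 4.52% of all tested genes. At an unadjusted p under 0.05, 10 were lower and 0 higher, where 14.5% and 14.4% of all tested genes were. DESeq2 called 3 lower and 0 higher, and the median log2 fold change of the pseudogenes was -0.070.

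The promoter sequences did not sort the genes clearly. Ribosomal protein genes with a TOP start had a median log2 fold change of 0.019 (55 tested), and the 6 without had -0.080. Those with the consensus CGCCATNTT (7 tested) had a median of 0.072 and the 54 without 0.016. Over all tested genes of the promoter table the medians were 0.070 with the consensus (754 genes) and -0.0013 without (7427 genes). Among the 4 genes shown with the consensus after the start, RPL24 had a log2 fold change of -0.081, RPL41 of 0.10, RPL35A of 0.16 and RPL21 of 0.26, and none passed the test. RPL13A (-0.17) and RPL12 (-0.25), which carry it on the opposite strand, were negative. RPL14 (0.072), which carries it upstream on the transcribed strand, was positive. With pseudogene reads added, the log2 ratio of mean CPM was -0.020 for both RPL21 and RPL14, while the others kept their sign. These medians are descriptions over few genes.

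Genes around the ribosomal proteins were taken from lists. Ribosomal protein genes outside the naming pattern, such as FAU, whose protein is made as a fusion with a ubiquitin-like part, gave 0 calls among 7 tested by edgeR or DESeq2 (2 higher at an unadjusted p under 0.05), with a median log2 fold change of 0.078. FAU was listed at 22.01, 23.3 and 21.6 FPKM in pcCon and at 24.5, 26.0 and 25.6 FPKM in pcYY2 samples, which lay apart (adjusted p = 0.0617). RPL7L1 stood at 0.774-fold (adjusted p = 0.317).

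Elongation factors and other TOP mRNAs, which share the pyrimidine start, held 5 called genes among 16 (31.2%, compared with 9.37% of all tested genes), 2 higher and 3 lower, with a median of -0.081. HNRNPA1, an RNA-binding protein of splicing, rose from 48.4, 49.5 and 49.4 FPKM to 58.6, 61.2 and 57.9 FPKM (1.22-fold, adjusted p = 0.0098), and EEF1D, a subunit of the exchange factor of elongation factor 1, rose 1.15-fold (adjusted p = 0.0457). EIF3E and EIF3L, subunits of initiation factor 3, fell to 0.830-fold and 0.861-fold (adjusted p = 0.0138 and 0.0278). PABPC1, the poly(A)-binding protein, fell from 102.5, 94.0 and 96.9 FPKM to 85.0, 81.5 and 83.9 FPKM (0.862-fold, adjusted p = 0.0252). The calls in this list thus went both ways.

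Among regulators of ribosomal protein expression 1 of 15 was higher and 1 lower (13.3%, compared with 9.37% of all tested genes), with a median of 0.087. EIF4EBP1, a repressor of cap-dependent translation downstream of mTOR, fell to 0.807-fold, from 62.9, 58.1 and 55.8 FPKM to 44.9, 48.5 and 47.8 FPKM (adjusted p = 0.0364). MAF1, a repressor of RNA polymerase III, rose 1.20-fold (adjusted p = 0.0490). LARP1, which binds TOP mRNAs, was listed at 33.8, 34.3 and 33.1 FPKM in pcCon and at 36.3, 38.3 and 37.5 FPKM in pcYY2 samples, at an adjusted p of 0.0507.

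Translation initiation factors gave 1 higher and 0 lower of 28 by edgeR (3.57%, compared with 9.37% of all tested genes), with a median of 0.075. With DESeq2 these were 1 and 0, and at an unadjusted p under 0.05 they were 5 and 2. The call was EIF6, which keeps free 60S subunits from joining 40S subunits. It rose from 39.1, 35.6 and 33.2 FPKM to 46.5, 51.2 and 42.6 FPKM (1.31-fold, adjusted p = 0.0424). EIF2S2 (0.874-fold, adjusted p = 0.0746) and EIF2B2 (1.23-fold, adjusted p = 0.0959) came next and did not pass. Of 12 ribosome associated factors, 1 was higher (8.33%, compared with 9.37% of all tested genes), with a list median of -0.005. It was SEC61A1, the pore of the endoplasmic reticulum translocon, at 1.55-fold (adjusted p = 0.0245).

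**Figure D4:**
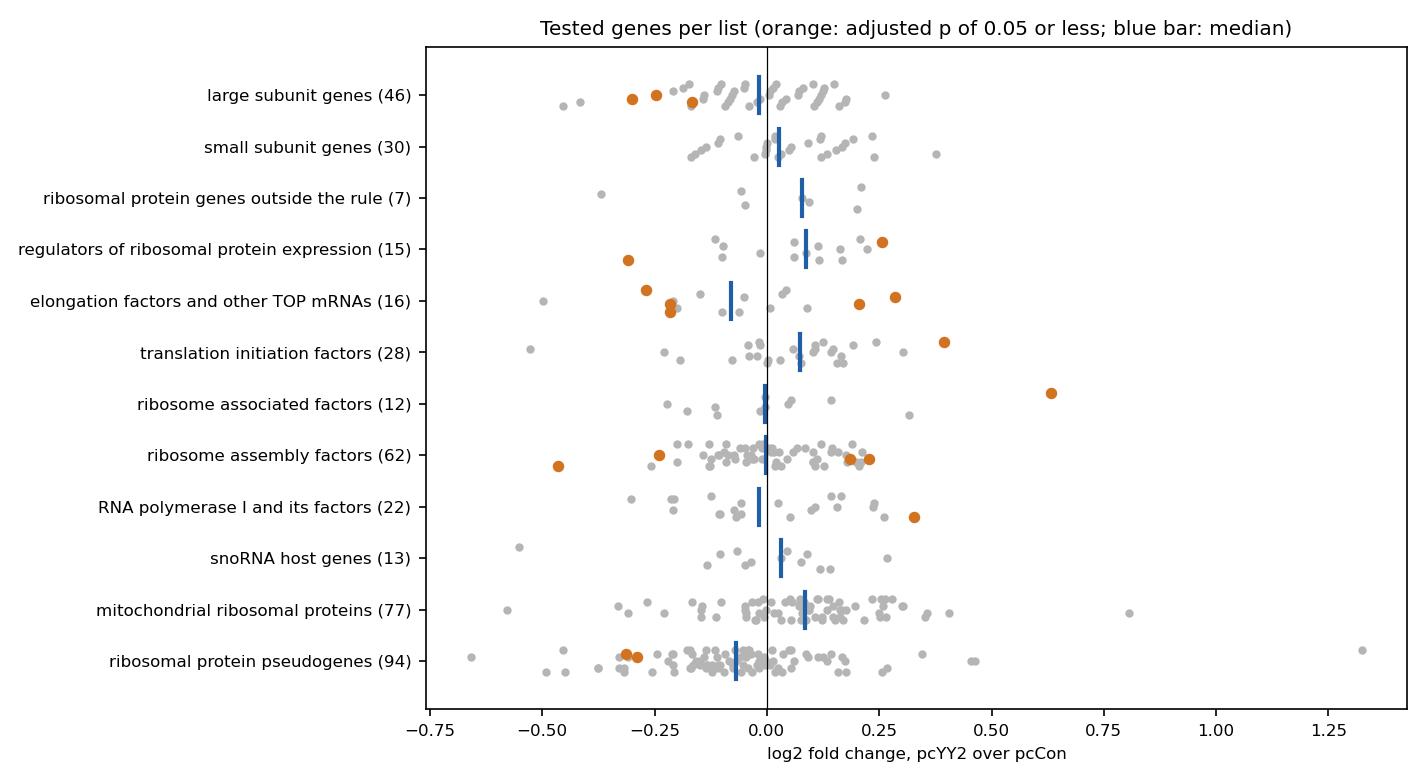
Log2 fold change of pcYY2 over pcCon (horizontal axis) of every tested gene of each list (rows, number of genes in brackets), with genes at an adjusted p of 0.05 or less in orange and the median of the list as a blue bar. The large subunit genes run from -0.45 to 0.26 and the small subunit genes from -0.17 to 0.38, with medians near 0.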

How the data were processed

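RNA-Seq covered HCT116 cells with pcCon or pcYY2, 3 samples each. The methods describe read filtering, alignment to GRCh38 by Tophat, FPKM from Cufflinks and a Cuffdiff test, whose output was not used. The submitters' processing notes name Bowtie2, HTSeq and TopHat, without versions. The deposited table gives whole-number counts per gene, unnormalized, and FPKM, which the authors scaled by a fixed length per gene and the total of the sample. Whether counting used the strand is not given in the sources used here.

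Genes whose mean FPKM reached 1 were tested with edgeR 4.0.16 (R 4.3.3, quasi-likelihood test, TMM factors, no block), Benjamini-Hochberg adjusted over 12015 genes and called at 0.05. The test was checked on simulated data. The labels do not state separate cultures, so p-values measure the spread between these samples, and exact permutation of 3 against 3 cannot go below 0.1. The member genes and lists were chosen with earlier results of these data known. Named were the called genes, the 3 highest and 3 lowest fold changes per subunit, the 5 highest and 5 lowest mean FPKM, the stalk genes and RPSA, the 5 genes in which 1 sample stood most apart, and at most 3 genes of smallest p per list; others were chosen after their values were seen. Some genes that were tested are not reported here. Alternatives were lower or no filters, other scalings, a replicate block, leaving out samples, DESeq2 1.42.0, robust dispersion, limma 3.58.1 on log2 FPKM with pseudocounts of 1 and 0.1, and summing with pseudogenes. Positions are from GENCODE 44.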

Additional observations from a re-analysis of the deposited data

How the results depend on the processing

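The median log2 fold changes, the read shares and the ratio of large to small subunit reads moved by less than the spread between samples in every alternative run, except that the large minus small median of -0.046 became -0.013 when pseudogene reads were summed with the genes, and no scaling moved the median of all genes by over 0.1. Ribosomal protein genes called lower in pcYY2 numbered 3 and became 10 at an unadjusted p under 0.05. They were 1 (RPL23) with a mean FPKM of at least 0.1, only RPL12 and RPL23 with no filter, and 0 to 2 leaving out 1 sample. Those called higher numbered 0 and became 4 at an unadjusted p, 1 (RPS27) with limma on log2(FPKM + 1) or log2(FPKM + 0.1), and 0 to 2 leaving out 1 sample. For the large subunit, lower calls (3) became 9 at an unadjusted p, 1 at the lower filter and 0 to 2 leaving out 1 sample, and higher calls (0) became 1 at an unadjusted p. For the small subunit, higher calls (0) became 3 at an unadjusted p, 1 with either limma setting and 0 to 2 leaving out 1 sample, and lower calls (0) became 1 at an unadjusted p and 0 to 1 leaving out 1 sample. The cause was not tested. The replicate block gave 0 lower calls, all and large subunit alike, and 51 higher and 50 lower of all genes, where the fit without it gave 543 and 583. Samples that share a number had correlations of -0.0274, -0.0318 and -0.0175 between their deviations, and other pairs a mean of 0.0128. With 3 samples per group, this cannot decide whether samples of the same number were handled together. Without single samples 138 to 411 genes were higher and 147 to 401 lower.

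Reversed signs were confined, among the named genes, to log2 fold changes that passed no test. RPL19 (0.014) stood at -0.0035 with upper quartile scaling, -0.0001 with total counts and -0.0015 with limma, and RPLP0 (0.0047) at -0.014, -0.0095 and -0.0062. RPS6 (-0.0029) stood at 0.019 with the lower and 0.012 with no filter. With pseudogenes RPL21 became -0.0065 and RPS26 -0.015. Leaving out 1 sample gave -0.037 to 0.049 for RPL19, -0.053 to 0.070 for RPLP0, -0.049 to 0.072 for RPS6, -0.020 to 0.26 for RPL35A, -0.21 to 0.10 for RPLP1, -0.058 to 0.12 for RPS12, -0.26 to 0.013 for RPS3 and -0.080 to 0.0053 for RPSA.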

Other observations

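The genes that build ribosomes were also measured. Of 62 ribosome assembly factors tested, 2 were higher and 2 lower in pcYY2 cells, 6.45% where 9.37% of all genes were called, with a median log2 fold change of -0.001. NMD3, the export adapter of the 60S subunit, fell from 21.1, 21.7 and 22.1 FPKM to 17.6, 13.6 and 15.3 FPKM (0.724-fold, edgeR adjusted p = 0.0286). RIOK1, a kinase of late 40S maturation, fell to 0.847-fold (adjusted p = 0.0333). MRTO4, a nucleolar relative of RPLP0 that holds its place on the pre-60S particle, rose 1.17-fold (adjusted p = 0.0290), and DDX56, a nucleolar helicase, rose 1.14-fold (adjusted p = 0.0487). Of 22 genes of RNA polymerase I and its factors 1 was higher (4.55%, compared with 9.37% of all tested genes). This was POLR2F, a subunit shared by the RNA polymerases (1.26-fold, adjusted p = 0.0293). UBTF, which activates ribosomal DNA, stood at 1.12-fold (adjusted p = 0.0658).

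Mitochondrial ribosomal protein genes gave 0 calls among 77 by edgeR, compared with 9.37% of all tested genes. DESeq2 called 1 in each direction and limma 0. At an unadjusted p under 0.05, 11 were higher and 3 lower, where 14.4% and 14.5% of all tested genes were. Of the 77, 54 had a positive and 23 a negative log2 fold change, with a median of 0.084. Of all tested genes 6049 were positive and 5966 negative, with a median of 0.002. MRPL16 was listed at 21.6, 20.8 and 20.2 FPKM in pcCon and at 23.01, 24.4 and 24.6 FPKM in pcYY2 samples (adjusted p = 0.0548). MRPL15 stood at 1.18-fold (adjusted p = 0.0548) and MRPS27 at 0.807-fold (adjusted p = 0.0558). The 13 tested snoRNA host genes gave 0 calls by edgeR, DESeq2 or limma, 1 higher at an unadjusted p under 0.05, and a median of 0.032.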
